A study of Mus musculus with 9 samples.

Results

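B cells of mouse blood were described from the columns of a deposited expression table that carry the class name B-cells-GL7-positive-Alum and in which Jchain makes up less than 0.001 of the column's total signal. Jchain encodes the joining chain of secreted IgM and IgA and is made in quantity by antibody-secreting cells. The rule kept 1110 of the 4310 blood columns. The B class held 1301 columns in all, of which 191 had Jchain at or above the limit and are called Jchain-rich below. Jchain was listed at 0 in 326 columns of the class. The working name for the 1110 columns was naive and resting B cells, whereas GL7 in the class name is known as a marker of activated and germinal centre B cells. They are called low-Jchain B columns here. The columns were chosen by their Jchain share, a measured value, and the class names may rest on the same expression values, so comparisons with other classes are descriptions and carry no test.

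The columns came from blood (the labels also give PBMC, peripheral blood mononuclear cells) of female 129SvE mice, either healthy, at disease stage 0, or with arthritis in a model of rheumatoid arthritis. Arthritic mice 1 and 4 were at stage 1.5, mouse 3 at stage 2, mouse 5 at stage 1.5 to 2 and mouse 6 at stage 2 to 2.5. The sources used here do not give the agent that induced arthritis, the age of the mice or the way classes were assigned. RNA was read by Seq-Well, in which single cells settle with barcoded beads in small wells and transcripts are read from their polyadenylated ends.

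Healthy mice 1, 2, 3 and 4 gave 9, 99, 0 and 3 low-Jchain B columns, and arthritic mice 1, 3, 4, 5 and 6 gave 217, 357, 79, 5 and 341. A column held 6052 to 36441 units of signal (median 8481) and 2286 to 7515 genes. Many columns repeated others. Every gene had equal values in another column for 237 of the 1110, and for 144 of them that other column was from a different mouse. This held between the groups for 15 of the 111 healthy columns, each matched by an arthritic one. The nearest low-Jchain B column of the same mouse shared a median of 77.0% of a column's signal, and the nearest one of another mouse 77.5%. Of the barcodes in the table, 1 was found in more than 1 mouse. The p-values below treat mice as independent samples and cover only the spread between these mice.

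B cells recognise antigen through a membrane immunoglobulin that signals through the chains CD79A and CD79B. A B cell that has not met antigen carries IgM and IgD and recirculates between blood and lymphoid organs. After activation with T cell help it can enter a germinal centre, divide, mutate and switch its antibody genes, and later become a plasma cell that secretes antibody and loses most surface B cell proteins. B cells also take up antigen and present it to T cells on MHC class II.

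Promoters of 3 B cell identity genes are shown because these genes were higher in the low-Jchain B columns than in the CD4 class and each window holds letters known to be bound by a factor of B cells. The windows run from 250 bases before to 50 bases after the gene start on the gene's own strand, from RefSeq on build GRCm38.p6. Of the 23 B cell identity genes in the table, 17 had a window. The letters searched on both strands were the octamer ATGCAAAT, bound by OCT factors, CCCNNGGGA, bound by EBF1, and GAGGAAGT, bound by PU.1. The octamer was in the window of Blnk, the adaptor of B cell receptor signalling (chr19:40994172-40994471, minus strand). CCCNNGGGA was in that of Cd22, an inhibitory receptor of B cells (chr7:30878979-30879278, minus strand), as 2 overlapping matches on opposite strands. GAGGAAGT was in that of Cd72, another inhibitory coreceptor (chr4:43454577-43454876, minus strand), and in those of Cd37 and Fcrl1. Among all 32851 windows of this length 1.74% held the octamer, 6.56% held CCCNNGGGA and 3.2% held GAGGAAGT. A match describes the letters and is no measure of binding. Capitals mark the matched letters.
Blnk: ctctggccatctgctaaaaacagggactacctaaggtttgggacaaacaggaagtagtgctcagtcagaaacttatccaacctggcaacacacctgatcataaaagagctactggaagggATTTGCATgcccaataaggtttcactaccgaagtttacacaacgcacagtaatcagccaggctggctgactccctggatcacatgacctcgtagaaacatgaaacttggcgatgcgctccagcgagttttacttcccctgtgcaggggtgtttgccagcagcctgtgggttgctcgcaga
Cd22: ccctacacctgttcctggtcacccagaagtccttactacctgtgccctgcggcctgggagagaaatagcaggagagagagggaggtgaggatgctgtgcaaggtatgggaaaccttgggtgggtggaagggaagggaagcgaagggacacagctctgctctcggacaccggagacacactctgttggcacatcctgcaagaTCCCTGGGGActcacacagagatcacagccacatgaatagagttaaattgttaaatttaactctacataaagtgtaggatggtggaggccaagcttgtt
Cd72: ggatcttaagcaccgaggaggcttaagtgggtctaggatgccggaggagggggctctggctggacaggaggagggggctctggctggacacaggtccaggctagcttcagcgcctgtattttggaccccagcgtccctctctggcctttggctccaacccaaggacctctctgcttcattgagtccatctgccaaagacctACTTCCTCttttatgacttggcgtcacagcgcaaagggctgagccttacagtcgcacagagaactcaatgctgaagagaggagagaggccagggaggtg

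The low-Jchain B columns carried most B cell genes at the highest level of the classes compared. Levels by class are signal summed over a class's columns of all mice, per 1000000 units of that signal (pooled SPM). Over 7 groups of columns (the low-Jchain B columns, the Jchain-rich B columns and 5 other deposited classes), 17 of the 23 B cell identity genes were highest in the low-Jchain B columns, 5 in the Jchain-rich B columns and 1 in the class named after CD4 T cells. Ms4a1, which encodes the surface protein CD20 (chr19:11249675-11266241 on GRCm38), stood at 918 pooled SPM, against 712 in the Jchain-rich B columns, 339 in the CD4 class and 74.4 in the granulocyte class. Pax5, the factor that maintains B cell identity, stood at 146 pooled SPM against 108 in the Jchain-rich columns and 53.3 in the CD4 class. Both genes were higher in the low-Jchain B columns than in the CD4 class in 6 of 6 mice that had both. Blnk was at 133 pooled SPM against 57.8 in the CD4 class, Cd22 at 197 against 86.5 and Cd72 at 158 against 64.6. Blnk was higher still in the Jchain-rich columns, at 196.

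The other 3 genes given as markers of these cells separated them less from the CD4 class than Ms4a1 did. From the Jchain-rich columns Ighd separated them more, at 1.75 times their level, and was higher in 5 of 5 mice. Cd79a (chr7:24897381-24902197) was at 211 pooled SPM, at 242 in the Jchain-rich columns and at 90.0 in the CD4 class. Ighd, the IgD constant region (chr12:113406604-113416324), was at 160.2 pooled SPM, 91.4 in the Jchain-rich columns and 118 in the CD4 class. Fcer2a, the low-affinity IgE receptor CD23 of follicular B cells (chr8:3681737-3694175), was at 41.4, 43.6 and 44.4 pooled SPM. By column, 1079 of the 1110 had signal for Ms4a1, 901 for Cd79a, 814 for Ighd and 371 for Fcer2a. All 4 were present in 247 columns and none of them in 6. Ms4a1 also had signal in 83.8% of CD4 class columns and 44.1% of granulocyte columns, against 97.2% of the low-Jchain B columns. The median total signal per column was 8481 in the low-Jchain B columns, 8448 in the CD4 class and 12397 in the granulocyte class.

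**Figure D1:**
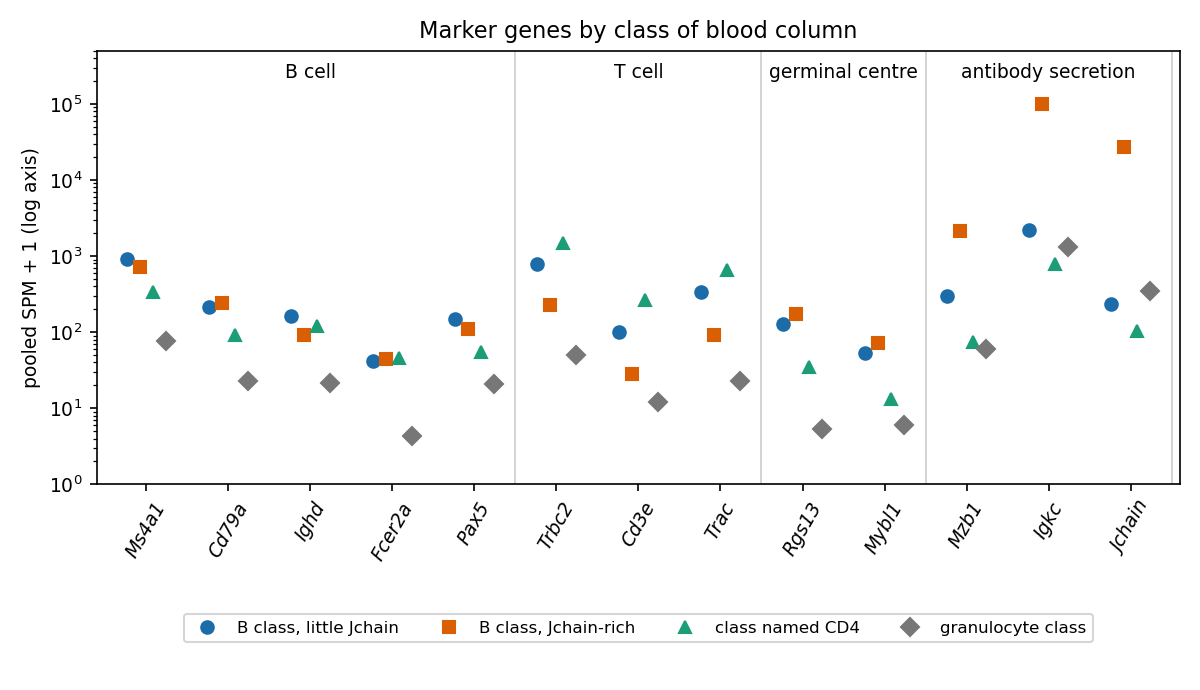
Pooled SPM plus 1 (log axis) of 13 genes in the low-Jchain B columns, the Jchain-rich B columns, the class named after CD4 T cells and the granulocyte class, with 1 point per class and gene and no error bar because columns are pooled over mice. Ms4a1 is highest in the low-Jchain B columns at 918, Trbc2 is highest in the CD4 class at 1495 with the low-Jchain B columns at 783, and Igkc and Jchain are highest in the Jchain-rich B columns.

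The genes with the largest ratio of their pooled level to the next highest class were for the most part not B cell genes. Of the 15 with the largest ratio at 50 pooled SPM or more, 10 were ribosomal protein pseudogenes, led by Rps12-ps26 at 1.90 times the next class. Reads of such pseudogenes can come from near-identical parent genes, so their values are uncertain. The other 5 were Scd1, a fatty acid desaturase (1.86 times), Wdfy4, which acts in antigen cross-presentation (1.70), Cd22 (1.63), Ebf1, the factor that specifies the B lineage (1.62), and Snx2, a sorting protein of endosomes (1.61).

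T cell genes were present in the same columns at a large part of the level of the T cell class. All 17 T cell markers in the table were highest in the CD4 class, and the low-Jchain B columns held their sum at 50.1% of that class's level, 3273 against 6538 pooled SPM. Trbc2, a constant region of the T cell receptor beta chain, was at 783 pooled SPM against 1495 in the CD4 class and 49.5 in granulocytes. Cd3e, a signalling chain of that receptor, was at 99.8 pooled SPM against 259.8 and 11.2. The Jchain-rich B columns lay lower, with Trbc2 at 229 and Cd3e at 27.3 pooled SPM. Signal for both Ms4a1 and Trbc2 was found in 1004 of the 1110 columns, and 8 columns had no signal of any T cell marker. In the reverse direction, the CD4 class held 29 genes of B cell receptor and identity at 2105 pooled SPM against 4718 in the low-Jchain B columns. The part that several cells or free RNA in a column have in these values was not tested.

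B and T cell signal ran in opposite directions from column to column. The summed B cell receptor and identity genes ranged from 557 to 12554 SPM with a median of 4336, and the summed T cell markers from 0 to 9493 SPM with a median of 3162. T cell signal was above B cell signal in 404 of the 1110 columns. Over the 1110 columns Spearman's rho between the sums was -0.59, and it was -0.59 over the 962 distinct profiles. Within mice it ran from -0.77 in arthritic mouse 3 to -0.07 in arthritic mouse 4, with -0.33 in healthy mouse 2. Both sums are parts of 1 column total, and columns share content and library, so rho is a description. Columns with more T than B cell signal were 4 of 9 and 55 of 99 in healthy mice 1 and 2, and 87 of 217, 98 of 357, 37 of 79, 2 of 5 and 120 of 341 in arthritic mice 1, 3, 4, 5 and 6.

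**Figure D2:**
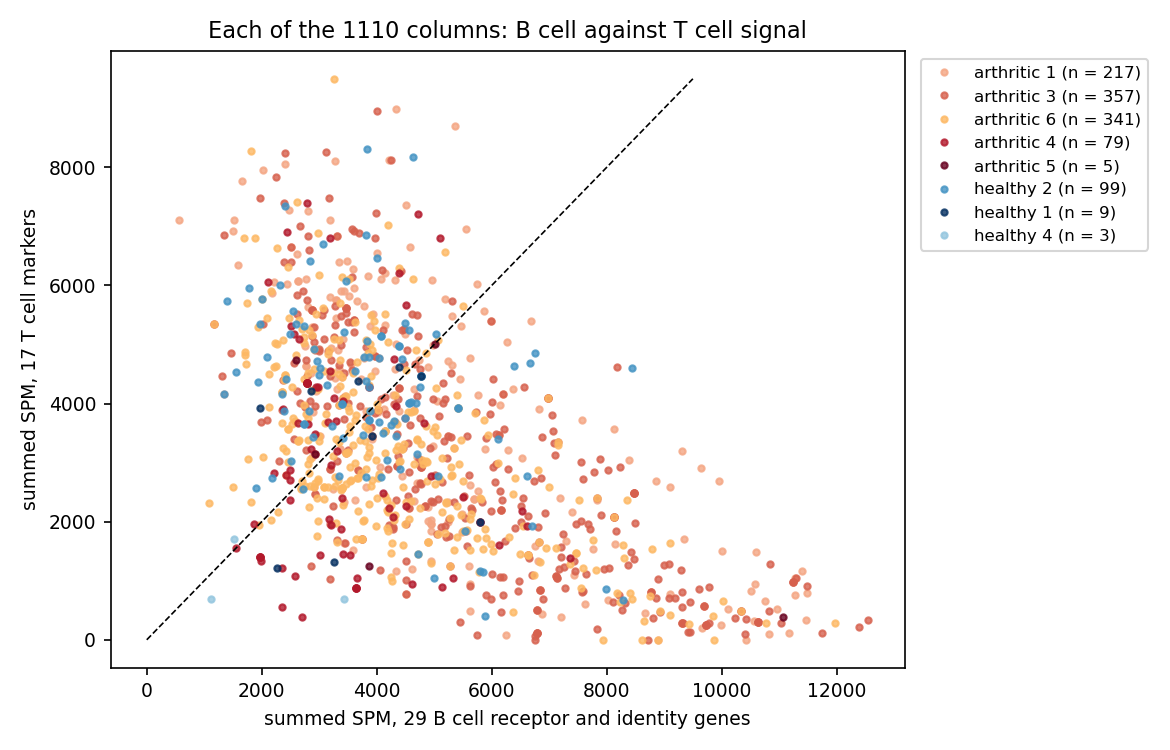
Each of the 1110 low-Jchain B columns by its summed SPM of 29 B cell receptor and identity genes (x axis) and 17 T cell markers (y axis), coloured by mouse, with the dashed line where both sums are equal. The columns form a continuous band, 404 of them lie above the line, and columns of healthy and arthritic mice are found on both sides of it.

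Genes outside both sums differed along the same axis. In the 706 columns with B cell signal at or above T cell signal, the median sum of MHC class II genes was 9026 SPM, against 6143 SPM in the 404 others. Ighm was at 781 pooled SPM against 417. Ccr7, which guides cells into lymph nodes, was at 124 against 208 pooled SPM. Ighd, at 170.2 against 143 pooled SPM, and Fcer2a, at 46.3 against 32.8, had the higher value in the columns with more B cell signal. Over all 1110 columns the sums of the B cell and the resting and homing genes had a Spearman's rho of 0.0049. The median total signal was 8745 against 8073.5 units, and the median mitochondrial share 9.80% against 10.6%.

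Immunoglobulin transcripts lay between the levels of T cells and of secreting cells. Igkc, the kappa light chain constant region (chr6:70726435-70726966), stood at 2177 pooled SPM, 2.80 times the CD4 class (778), against 99947 in the Jchain-rich B columns. Ighm (chr12:113418558-113422730) stood at 647 pooled SPM against 256 in the CD4 class and 19419.7 in the Jchain-rich columns. Ighg1, the constant region of IgG1, stood at 185 pooled SPM against 32.0 and 25600.1. Ighd was the 1 gene of 13 constant region genes that was higher in the low-Jchain than in the Jchain-rich B columns, by 1.75 times. The granulocyte class held Igkc at 1333 and Ighm at 495 pooled SPM, although granulocytes do not make immunoglobulin. The low-Jchain B columns were above granulocytes in 6 of 7 mice for Igkc and in 5 of 7 for Ighm.

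Genes of antibody secretion were far lower in the low-Jchain than in the Jchain-rich B columns. The rule used Jchain, so this gap is a description. All 19 plasma cell programme genes in the table were highest in the Jchain-rich columns. Jchain was at 234 against 26772 pooled SPM. Mzb1, a chaperone of immunoglobulin assembly, was at 299 against 2137 pooled SPM and Xbp1, the factor that expands the secretory apparatus, at 118 against 887. Mzb1 was nevertheless 4.08 times its level in the CD4 class. Fkbp11, Derl3, Sdc1 and Tnfrsf17 stood at 0.679 to 1.19 pooled SPM in the low-Jchain B columns. At the rule's edge, the 5 columns just inside the limit had Jchain at 975 to 992 SPM and the 5 just outside at 1003 to 1023 SPM, with Ighm at 279 to 1626 SPM inside and 253 to 1432 SPM outside. Ms4a1 was at 698 to 3205 SPM inside and 286 to 3547 SPM outside, so the ranges on both sides of the limit overlapped for these genes.

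Several genes of the germinal centre were higher in both groups of B columns than in the other classes, which goes against the working name of the low-Jchain ones. Only 6 of 17 were higher in the low-Jchain than in the Jchain-rich B columns, with sums of 929 and 1191 pooled SPM. Of 17 germinal centre genes in the table, 14 were above the CD4 class, and 13 were highest in one or other of the B groups, 3 of them in the low-Jchain B columns. Rgs13, a signalling regulator of germinal centre B cells (chr1:144138654-144177372), was at 126 pooled SPM against 172 in the Jchain-rich columns, 34.1 in the CD4 class and 4.28 in granulocytes. Mybl1, a factor of dividing germinal centre B cells, was at 52.1 pooled SPM against 70.9, 12.2 and 5.01 in the same order. Bcl6, the factor that keeps cells in the germinal centre state, was at 31.4 pooled SPM against 34.1 in the CD4 class. Rgs13 had signal in 41.0% of the low-Jchain B columns, against 26.2% of CD4 class and 3.52% of granulocyte columns. Both Rgs13 and Ighd had signal in 346 columns. Over all 1110 columns the summed germinal centre and cell cycle genes had a Spearman's rho of 0.46, with values from 0.11 in arthritic mouse 4 to 0.58 in arthritic mouse 3.

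Genes of resting and recirculating lymphocytes were in most cases higher in the CD4 class. Of 21 such genes 15 were highest in that class and 4 in the low-Jchain B columns, and 20 of the 21 were higher in the low-Jchain than in the Jchain-rich B columns. The 4 were Ighd, Cxcr5, the receptor that guides cells into B cell follicles, Bach2, a repressor of plasma cell fate, and Tnfrsf13c, which encodes the receptor for the survival factor BAFF. Cxcr5 stood at 38.6 pooled SPM against 19.6 in the CD4 class and Tnfrsf13c at 138 against 65.4. Ccr7 was at 155 pooled SPM against 297 and Klf2, a factor of quiescent lymphocytes, at 303 against 349. Of 13 transitional and immature B cell genes, 9 were above the CD4 class and 2 were highest in the low-Jchain B columns. The 2 were Spib, a factor of B cell development that is also on the list of B cell identity genes, at 53.8 pooled SPM against 16.8 in the CD4 class, and Bcl2l11, which encodes the death factor BIM, at 48.4 against 43.0. Vpreb3, a partner of the early B cell receptor, was at 45.8 against 13.3 pooled SPM and at 69.6 in the Jchain-rich columns, while Rag1, which recombines receptor genes, was at 0.17 pooled SPM and Rag2 and Vpreb2 were listed at 0. The columns thus held transcripts known from resting, germinal centre and T cells, and they are called by their rule rather than by a state.

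Markers of other blood cells were measured as well. The 14 summed neutrophil markers were at 3494 pooled SPM, 1.90% of the granulocyte level, and the 10 summed monocyte markers at 1211 pooled SPM, 9.45% of it. The neutrophil sum was above the T cell marker sum of the same columns, 3273 pooled SPM, and above the neutrophil sum of the CD4 class, 885. NK cell markers summed to 255 pooled SPM and platelet markers to 16.8. Hemoglobin took 8.64% and 0.134% of the signal in healthy mice 1 and 2 and 0.0785%, 0.0702%, 20.1%, 8.41% and 0.496% in arthritic mice 1, 3, 4, 5 and 6. In the 3 columns of healthy mouse 4 hemoglobin took 43.7%. Of the 79 columns of arthritic mouse 4, 36 held 20% hemoglobin or more. Mcpt8, a basophil protease, stood at 431 SPM in arthritic mouse 4 and at 0 to 12.3 SPM in the other 6 mice with at least 5 columns. Prss34, a further basophil protease, was at 126 SPM there and listed at 0 in the others. The Mcpt8 signal of that mouse came from 8 columns, of 5 distinct profiles.

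The share of columns that met the rule was compared between healthy and arthritic mice, with the mouse as the unit. Low-Jchain B columns made up 30.0%, 49.3%, 0% and 6.67% of all columns in healthy mice 1, 2, 3 and 4 and 21.1%, 37.0%, 11.0%, 0.996% and 42.9% in arthritic mice 1, 3, 4, 5 and 6. The groups overlapped along nearly their whole range. The means were 21.5% ± 22.5 and 22.6% ± 17.5 (mean ± SD over 4 and 5 mice; p = 0.921 by a two-sided exact permutation test). Of the B class columns, 100%, 89.2% and 20.0% met the rule in healthy mice 1, 2 and 4, against 79.2%, 79.7%, 91.9%, 55.6% and 98.0% in the arthritic mice in the same order. Healthy mouse 4 was the lowest of the 8, and the means were 69.7% ± 43.4 and 80.9% ± 16.3 (mean ± SD over 3 and 5 mice; p = 0.643 by the same exact test). Healthy mouse 3 had 1 B class column and gave no such share. Without healthy mouse 4 the difference, arthritic minus healthy, turned from 11.1 to -13.7 percentage points.

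The next 4 measures described the makeup of immunoglobulin transcripts and the hemoglobin content in the 7 mice with at least 5 low-Jchain B columns. Ighd made up 15.1% and 21.5% of Ighm plus Ighd signal in healthy mice 1 and 2 and 18.4% to 21.6% in the arthritic mice (18.3% ± 4.54 and 19.5% ± 1.26, mean ± SD over 2 and 5 mice; exact permutation p = 0.476). The lambda share of light chain constant signal was 41.9% and 37.2% in the healthy mice and 38.7% to 43.7% in the arthritic mice (39.6% ± 3.37 and 40.9% ± 2.00, SD; exact permutation p = 0.476). The lambda constant genes are near-identical copies, so reads may be split or lost between them and this share is uncertain. The switched share of heavy chain constant signal, the part from IgG, IgA and IgE genes, was 19.8% and 19.7% in the healthy mice and 29.3%, 36.9%, 14.3%, 17.4% and 22.5% in arthritic mice 1, 3, 4, 5 and 6 (19.7% ± 0.0680 and 24.1% ± 9.13, SD; exact permutation p = 0.667). Arthritic mice 1 and 3 had the highest values, and the other 3 lay on both sides of the healthy mice. Part of the columns of arthritic mice 1 and 3 (39 of 217 and 53 of 357) equalled a column of another mouse. So did part of the columns of every other mouse with at least 5 low-Jchain B columns. The hemoglobin share was 4.39% ± 6.01 and 5.84% ± 8.75 (SD; exact permutation p = 0.952). All 6 measures had a Benjamini-Hochberg adjusted exact permutation p of 0.952. With 2 healthy against 5 arthritic mice the smallest p the exact test can give is 0.0952, so these 4 measures could not pass 0.05 at any size of difference.

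**Figure D3:**
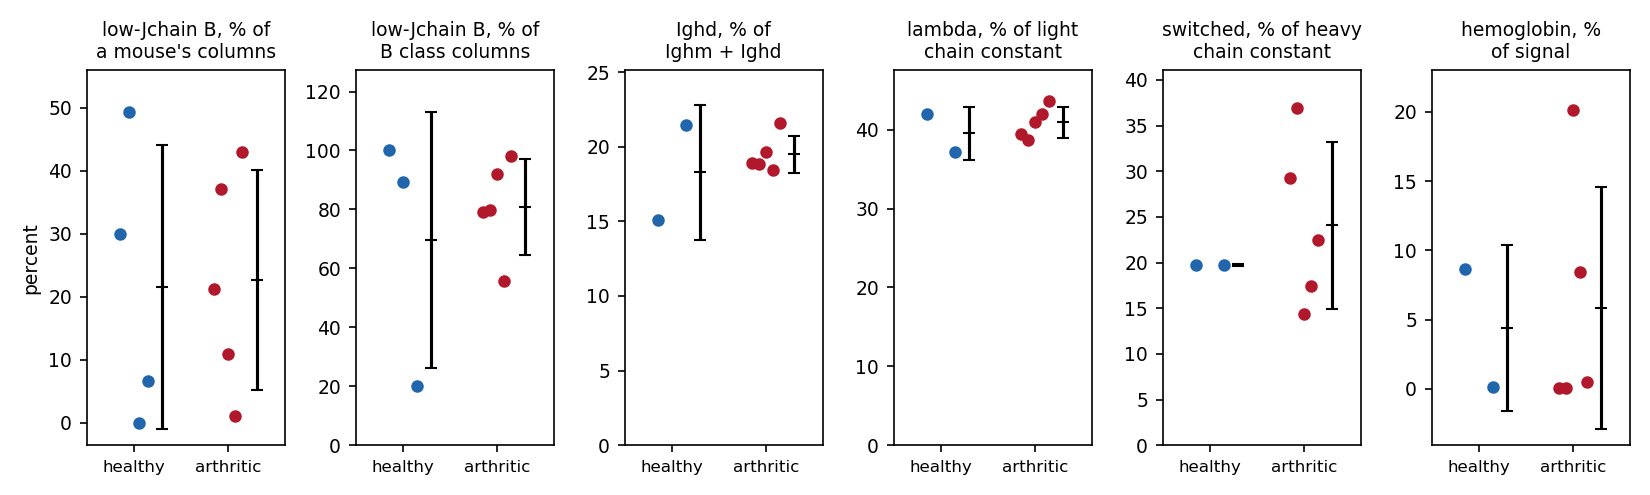
Percent per mouse of the 6 measures, with each point a mouse and the bar beside each group its mean and SD. The low-Jchain B share of all columns spans 0% to 49.3% in healthy and 0.996% to 42.9% in arthritic mice, and arthritic mice 1 and 3 have the highest switched shares at 29.3% and 36.9%.

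Expression was then compared gene by gene between the groups. Signal was summed over the low-Jchain B columns of each mouse, scaled, expressed per 1000000 (SPM) and tested on the log2(SPM + 1) scale with limma, in healthy mice 1 and 2 and arthritic mice 1, 3, 4, 5 and 6. None of 10720 genes passed a Benjamini-Hochberg adjusted p of 0.05 in limma (0%, smallest adjusted p 0.993). An unadjusted p under 0.05 was reached by 286 genes (2.67%), 265 of them higher (2.47%) and 21 lower (0.196%) in arthritic mice. The groups did not overlap for 574 genes with every arthritic mouse higher (5.35%) and 386 with every arthritic mouse lower (3.6%). Over all genes the median log2 difference was 0.05, and it moved to -0.08 with median-of-ratios scaling. The 5 columns of arthritic mouse 5 held 43972 units and the 9 of healthy mouse 1 held 115716, so 1 unit was worth 17.1 and 7.64 SPM there, against 0.246 SPM in arthritic mouse 3. A gene at a low level can be listed at 0 in those mice at this depth.

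The 5 genes with the smallest p in each direction are given as values, since none passed. Tiparp, an ADP-ribosyltransferase induced by the aryl hydrocarbon receptor (chr3:65528410-65555518), stood at 45.9 and 53.3 SPM in healthy mice 1 and 2 and at 108, 92.9, 101, 85.4 and 115 SPM in arthritic mice 1, 3, 4, 5 and 6. All arthritic values were above both healthy ones, with a log2 difference of 1.00 ± 0.27 (SE). Bax, a mediator of mitochondrial apoptosis (chr7:45461697-45466898), stood at 45.9 and 76.9 SPM against 121, 122, 126, 102 and 127 SPM, with a log2 difference of 0.99 ± 0.28 (SE) and no overlap. Pglyrp1, a bactericidal protein of neutrophil granules, was at 7.64 and 12.4 SPM against 28.3 to 64.4 SPM. The summed neutrophil markers were at 2599 and 2244 SPM in the healthy and 2254 to 4617 SPM in the arthritic mice, and their part in the Pglyrp1 value was not tested. The antisense transcript Etaa1os and the variable segment Ighv5-6 completed the 5, with healthy values of 0 and 0, and of 0 and 6.20 SPM, against 7.30 to 34.2 and 16.6 to 34.2 SPM. For both, the value in arthritic mouse 5 came from 2 units of signal. A gene was tested if it reached 10 SPM in at least 2 mice. Etaa1os and Ighv5-6 were under 10 SPM in both healthy mice, so only arthritic values brought them into the test. In healthy mouse 1, 1 unit was worth 7.64 SPM, so its 0 cannot be told from a low level. No conclusion is drawn from the separation of these 2 genes.

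In the lower direction, Atp10d, a phospholipid flippase annotated as a polymorphic pseudogene (chr5:72203329-72298775), stood at 76.4 and 88.0 SPM in healthy mice 1 and 2 and at 42.9, 30.8, 35.4, 34.2 and 42.0 SPM in the arthritic mice (log2 difference -1.14 ± 0.33, SE). Mark3, a kinase of cell polarity, was at 129.9 and 84.3 SPM against 34.2 to 61.6 SPM, and Iqgap2, a scaffold of the cytoskeleton, at 76.4 and 55.8 against 19.5 to 34.2 SPM. Mphosph9 and C2cd5 were at 61.1 and 62.0 and at 61.1 and 59.5 SPM in the healthy mice against 17.1 to 38.6 and 15.4 to 38.8 SPM. For all 5 the arthritic values lay under both healthy values, as they did for 3.6% of all genes tested. The 5 were picked by their small p, which favours such separation. Atp10d, Mark3 and Mphosph9 were listed at 0 in healthy mouse 4, which had 3 columns and 43.7% hemoglobin. With that mouse added, their log2 differences turned to 0.99, 1.18 and 0.72.

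The genes of the B cell receptor and of B cell identity did not pass either. Ms4a1 was at 466 and 759 SPM in healthy mice 1 and 2 and at 999, 1130.2, 846, 905 and 839 SPM in arthritic mice 1, 3, 4, 5 and 6. Every arthritic value was above both healthy ones, and the log2 difference was 0.66 ± 0.25 (SE; limma adjusted p = 0.993). In the columns with B cell signal at or above T cell signal the groups overlapped for Ms4a1, unscaled. It was at 547 and 957 SPM in healthy mice 1 and 2 there, against 1265, 1335, 793 and 925 SPM in arthritic mice 1, 3, 4 and 6. Cd79a was at 183 and 144 SPM against 188 to 277 SPM (log2 difference 0.46), and Cd79b at 275 and 244 against 256 to 473 SPM (0.48). Ighd was at 84.1 and 176 SPM against 119.5 to 195 SPM, and Fcer2a at 30.6 and 59.5 against 35.4 to 53.3 SPM, both with overlap. Of 29 genes on the list, 21 had a positive log2 difference (53.5% of all genes tested did), the median was 0.19, 3 had every arthritic mouse higher (5.35% of all genes did), and 1 had an unadjusted p under 0.05 (2.67% of all genes did). The median was 0.01 without arthritic mouse 3, 0.04 without arthritic mouse 1 and 0.08 without healthy mouse 1. The B cell gene sum was 3332 and 4218 SPM in the healthy and 3655 to 5425 SPM in the arthritic mice, and the T cell marker sum 2859 and 4312 against 2101 to 3857 SPM. Healthy mouse 2 had the highest T cell sum of the 7.

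MHC class II genes were higher in arthritic mice by value, without passing the test. Of 13 genes tested, 12 had a positive log2 difference, the median was 0.57 beside 0.05 over all genes, 6 had every arthritic mouse higher (5.35% of all genes did) and 5 had an unadjusted p under 0.05 (2.67% of all genes did). The 5 became 2 without arthritic mouse 3, 3 without arthritic mouse 1 and 4 without arthritic mouse 4 or 6. They became 0 with a Jchain limit of 0.002, which also added healthy mouse 4. The list's median of 0.38 there was below the 0.50 of all genes. The 5 became 7 with Jchain under 0.0005 or without arthritic mouse 5. The median was 0.55 without healthy mouse 1, 0.56 without healthy mouse 2, and 0.38 to 0.68 over all alternatives. Cd74, the invariant chain that guides class II molecules, stood at 2652 and 2758 SPM in healthy mice 1 and 2 and at 4191, 4764, 4166, 3996 and 3719.7 SPM in arthritic mice 1, 3, 4, 5 and 6. The groups did not overlap, and the log2 difference was 0.62 ± 0.28 (SE). H2-Aa, an alpha chain of the class II molecule, was at 887 and 918 SPM against 1327, 1470.05, 1485, 1725 and 1364 SPM, a log2 difference of 0.70 ± 0.22 (SE). H2-Ab1, its beta chain, was at 718 and 796 SPM against 1165, 1323, 1152, 1178 and 1082 SPM (0.64 ± 0.21, SE). H2-Eb1, a further beta chain, H2-DMb2, a chain of the peptide exchange factor, and H2-Oa, a chain of its inhibitor, were also above both healthy mice in every arthritic mouse. H2-Ob, the partner of H2-Oa, had a log2 difference of -0.25 with overlap.

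Values of other cell types and of a subset of columns are given beside class II, and their part in it was not tested. The dendritic cell class held Cd74 at 6840.4 pooled SPM against 3930.2 in the low-Jchain B columns. Dendritic cell markers summed to 99.4 and 139 SPM in the healthy and 154 to 192 SPM in the arthritic mice, and the 5 tested had a median log2 difference of 0.76. Monocyte markers summed to 1039 and 566 SPM in the healthy and 700.2 to 2060.4 SPM in the arthritic mice, so the groups overlapped. Arthritic mouse 3, with the highest class II sum, had a monocyte sum of 838 SPM. In the columns with B cell signal at or above T cell signal, the median log2 difference of the class II list was 0.54, with 13 of 13 positive, against 0.23 over all genes. In those columns Cd74, unscaled, was at 3466 and 3258 SPM in healthy mice 1 and 2 and 4847, 5260, 3312 and 3590.2 SPM in arthritic mice 1, 3, 4 and 6, so the groups overlapped. H2-Ab1, unscaled, overlapped as well, at 1003 and 885 against 951 to 1428 SPM. H2-Aa, unscaled, did not, at 1147 and 1029 against 1267 to 1594 SPM. The values of these 3 genes per mouse given earlier were scaled, so the 2 sets are not alike. With healthy mouse 4 added, which had 3 columns and 43.7% hemoglobin, the list's median was 0.62 and that of all genes 0.59.

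**Figure D4:**
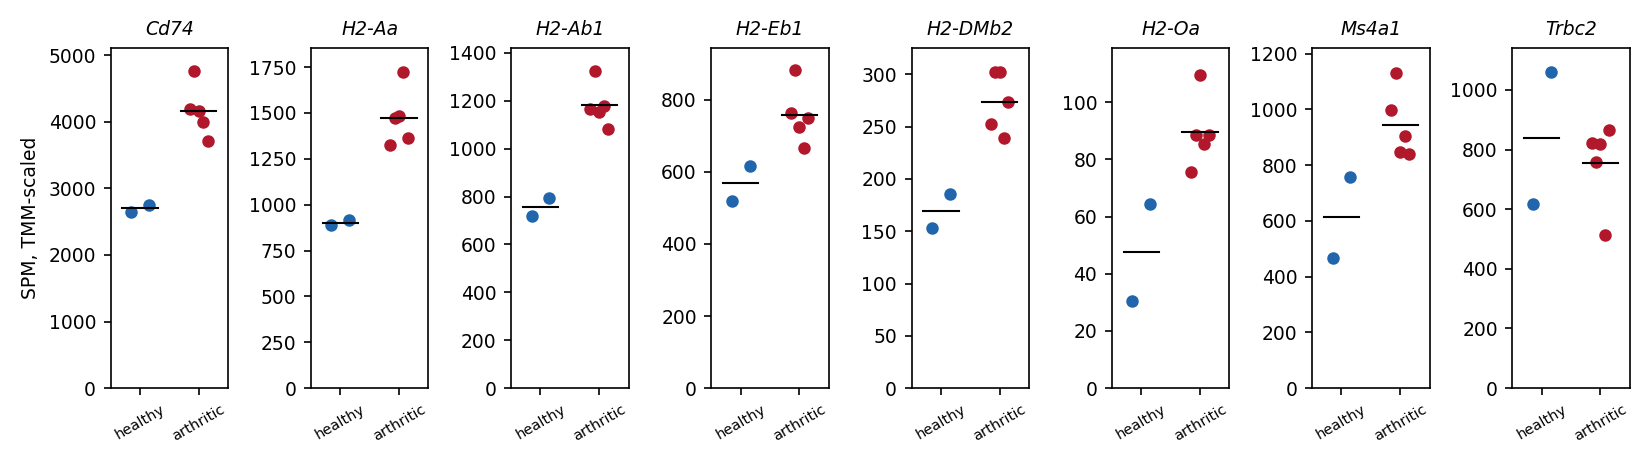
SPM per mouse, scaled with TMM factors, of 6 MHC class II genes, Ms4a1 and Trbc2 in the low-Jchain B columns of 2 healthy and 5 arthritic mice, with each point a mouse and the line the group mean. The arthritic mice are above both healthy mice for the 6 class II genes and Ms4a1, and the groups overlap for Trbc2 (619 and 1059.8 SPM against 512 to 864 SPM).

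Germinal centre and proliferation genes differed widely between arthritic mice. The 17 germinal centre genes had a median log2 difference of 0.43, with 2 of them higher in every arthritic mouse (5.35% of all genes were). That median was -0.14 without healthy mouse 1, 0.79 without arthritic mouse 4 and 0.10 with at least 10 columns per mouse, so no direction is given. Rgs13 was at 53.5 and 81.8 SPM in healthy mice 1 and 2 and at 151, 198, 38.6, 102 and 73.5 SPM in arthritic mice 1, 3, 4, 5 and 6, so the groups overlapped. Arthritic mice 1 and 3 were the highest for Rgs13, as they were for Ighg1, at 204 and 302 SPM against 68.3 to 113 SPM in the other arthritic and 76.4 and 89.2 SPM in the healthy mice. Of their columns, 39 of 217 and 53 of 357 equalled a column of another mouse. The highest germinal centre sum of a column was 5766 SPM in both, so these 2 mice may not be independent. The same holds for other mice, as this highest sum was 2299 SPM in both healthy mouse 2 and arthritic mouse 6. Columns equal to one of another mouse were also 3 of 9 and 12 of 99 in healthy mice 1 and 2. In arthritic mice 4, 5 and 6 they were 4 of 79, 1 of 5 and 32 of 341. The 23 cell cycle genes had a median of -0.38, which was 0.11 without healthy mouse 1, 0.44 with at least 10 columns per mouse, 0.29 with distinct columns and 0.40 with limma array weights, so no direction is given for them either. Mki67, a marker of dividing cells, was at 237 and 218 SPM in the healthy mice and 358, 366, 69.2, 119.5 and 127 SPM in the arthritic mice. Of the 21 resting and homing genes 10 were positive and 11 negative, with a median of -0.05.

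Of 18 genes for survival and cytokine receptors, 10 had a positive and 8 a negative log2 difference, with a median of 0.12, and 2 had an unadjusted p under 0.05 (2.67% of all genes did). The median was -0.05 without arthritic mouse 1 and -0.01 without arthritic mouse 3. Tnfrsf13c, the BAFF receptor gene, was at 99.4 and 97.9 SPM in the healthy mice and at 161, 172, 164, 171 and 112 SPM in the arthritic mice, a log2 difference of 0.64 ± 0.25 (SE) with no overlap. Ly86, which encodes a partner of the B cell surface protein RP105, was at 38.2 and 62.0 SPM against 108, 106, 86.9, 85.4 and 80.1 SPM (0.91 ± 0.30, SE). Mzb1 was at 206 and 156 SPM against 346, 405, 224, 273 and 243 SPM (0.69 ± 0.28, SE). The adjusted p of these 3 in limma was 0.993. Of 15 plasma cell programme genes tested, 11 were positive with a median of 0.11, and of 24 type I interferon response genes 15 were positive with a median of 0.17. Of all genes tested 53.5% were positive. The plasma cell median was -0.03 without arthritic mouse 1 and -0.01 without arthritic mouse 3. The interferon median was -0.01 without arthritic mouse 1.

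Small noncoding and ribosomal loci were lower in arthritic mice by value, and healthy mouse 2 stood apart in them. All 6 genes tested had a negative log2 difference, with a median of -0.99. Mir6236, a microRNA locus (chr9:110281287-110281409), was at 2132 and 8415 SPM in healthy mice 1 and 2 and at 2503, 1789, 2471, 888 and 2389 SPM in the arthritic mice. Gm42418, a lincRNA known to overlap ribosomal RNA (chr17:39846958-39848788), was at 26736 and 70745 SPM against 8915 to 27164 SPM. Healthy mouse 1 lay among the arthritic mice for both. Without healthy mouse 2 the list's median was -0.27, and without healthy mouse 1 it was -1.84. Over mice with at least 10 columns, where healthy mouse 2 is the 1 healthy mouse and is assumed to vary like the arthritic mice, limma called 2 genes, Mir6236 and Gm42418 (smallest adjusted p 0.0313). The summed list was at 56392 pooled SPM in the CD4 class against 29536 in the low-Jchain B columns.

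**Figure D5:**
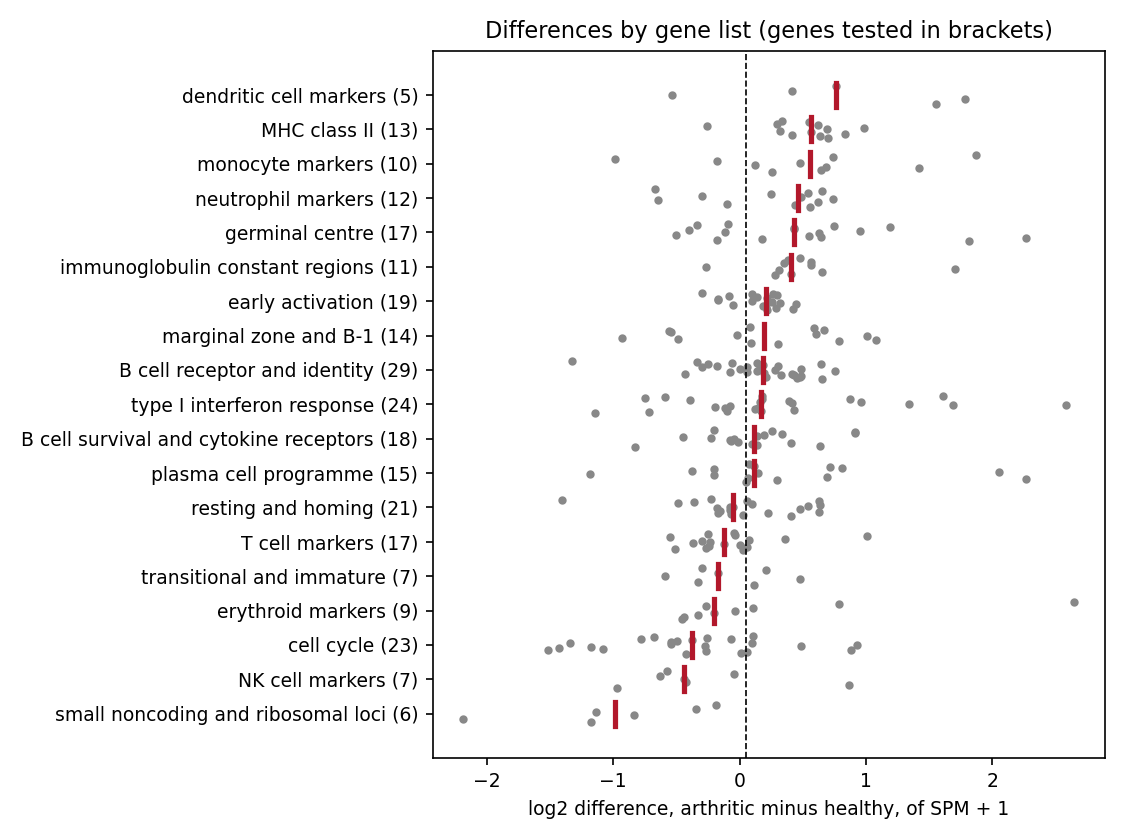
Log2 difference of arthritic minus healthy mice for the tested genes (points) of 19 lists, with the median of each list (thick line) and of all genes (dashed line at 0.05). MHC class II lies at a median of 0.57 with 12 of 13 genes above 0, and small noncoding and ribosomal loci at -0.99 with 6 of 6 genes under 0, and no gene passed the adjusted threshold.

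The last comparison asked whether arthritic and healthy mice differed in another way in the low-Jchain B columns than in the granulocyte columns of the same mice. In limma on the per-mouse difference of log2 values, 0 of 11706 genes (0%) passed the adjusted threshold, with a smallest adjusted p of 0.0574, and 1678 (14.3%) had an unadjusted p under 0.05. The count was not stable, at 1168 without healthy mouse 1 and 373 without arthritic mouse 5. The healthy granulocyte values rest on 13 and 5 columns, with 141610 and 59991 units of signal, against 249 to 489 columns in the arthritic mice. Dap, Fam91a1 and the pseudogene Rpl38-ps2, the 3 with the smallest p, were listed at 0 in the granulocytes of both healthy mice, and no fold is given for them. In the low-Jchain B columns Dap, a protein linked to cell death, was at 38.2 and 31.0 SPM in the healthy and 14.5 to 30.5 SPM in the arthritic mice. In the other direction Lztr1, a regulator of RAS, was at 0 and 1.24 SPM in the healthy low-Jchain B columns and at 5.93 to 17.1 SPM in the arthritic ones, against 10.6 and 13.1 and 4.80 to 7.43 SPM in granulocytes. The 1.24 SPM of healthy mouse 2 and the 17.1 SPM of arthritic mouse 5 are 1 unit of signal each.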

How the data were processed

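The deposited table holds whole-number signal per gene and column, named by class, group, mouse and barcode; per the labels' protocols the authors used Seq-Well, the Drop-seq core protocol and a GRCm38.p5 genome. Because columns shared content they were not treated as counts of single cells, the planned count test was not run, and no doublet caller was used. From another table, 8423 columns named for joints were not used. Signal was summed per mouse (at least 5 columns), scaled with TMM factors (trims of 30% and 5%), filtered at 10 SPM in at least 2 mice and tested with limma 3.58.1 (R 4.3.3) on log2(SPM + 1), with Benjamini-Hochberg adjustment at 0.05. Shares were compared over mice with two-sided exact permutation tests (scipy 1.17.1, Python 3.11.15). A mouse's 43972 to 4076076 units of signal set the precision. Members and gene lists were chosen with earlier results of these data known. Named genes were the 10 with the smallest p per direction where none passed (5 are described), the rule markers, up to 4 per list, and the 15 with the largest ratio to other classes; others were named after their values were seen. Positions are from GENCODE M21 on GRCm38. Alternatives varied scaling, filter, pseudocount, Jchain limit, column minimum, identical columns, weights, covariate and mice left out.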

Additional observations from a re-analysis of the deposited data

Results flagged for a closer look

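Over 53 groups of values, 4 held a mouse far from the others of its group, and chance alone marks about 5% of groups. Bax was lowest in arthritic mouse 5, at 102 SPM. Tnfrsf13c was lowest in arthritic mouse 6, at 112 SPM. Gm42418 was lowest in arthritic mouse 5, at 8915 SPM, and so was the summed level of small noncoding and ribosomal loci, at 10794 SPM (10793.5). Arthritic mouse 5 gave 5 low-Jchain B columns, and the part of that depth in its values was not tested.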

How the results depend on the processing

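The gene comparison called 0 genes in 24 of 25 alternatives and 2 with at least 10 columns per mouse, while genes with an unadjusted p under 0.05 ranged from 115 to 1552. Leaving out each mouse gave 0 to 0 calls. The difference from granulocytes called 41 genes with median-of-ratios factors, 32 with no filter, 82 with a filter at 20 SPM, 156 with a pseudocount of 0.5, 420 with Jchain under 0.0005, 4175 with distinct columns (1 healthy mouse) and 0 to 1168 with a mouse left out; the cause was not tested. Of 25 genes followed, 22 kept their direction in every alternative that gave them a value. Atp10d turned to 0.96 with Jchain under 0.002 and 0.99 with at least 1 or 3 columns, Mphosph9 to 0.78 and 0.72, and Mark3 to 1.18 with at least 1 or 3 columns. All of these alternatives also added healthy mouse 4. Differences in shares are arthritic minus healthy, in percentage points. With Jchain under 0.002 they turned to -11.2 (share of B class), -5.82 (share of all columns), -7.94 (IgD), -5.24 (switched) and -11.0 (hemoglobin). For IgD, switched and hemoglobin that limit also added healthy mouse 4, giving 3 healthy mice against 2. The limit and the set of mice thus changed together for these measures. With Jchain under 0.0005 the share of all columns turned to -0.278. With distinct columns the share of B class turned to -8.10, lambda to -0.0578 and hemoglobin to -2.37. Lambda and hemoglobin rested there on 4 arthritic mice, against 5 in the main setting. IgD turned to -1.73 with at least 10 columns and hemoglobin to -11.7 with at least 1. Leaving out a mouse gave -13.7 to 26.3 for the share of B class, -6.03 to 10.4 for the share of all columns, -1.99 to 4.42 for IgD, -1.01 to 3.77 for lambda, 1.15 to 6.79 for switched and -2.80 to 5.70 for hemoglobin.

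With the replicate number as a block the share of B class differed by 25.5 over 2 pairs and the share of all columns by 10.8 over 3 pairs, and nothing in the labels says that a number marks a shared source. No paired analysis was possible because, for the gene comparisons and the other measures, the groups share 1 replicate number among mice with at least 5 columns. Not run were the count test, as the columns were not treated as counts of single cells, and the granulocyte difference with at least 10 columns, which gave no value. Depth limits genes at low levels in arthritic mouse 5 and healthy mouse 1.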
